A study of Mus musculus with 51 samples.

Results

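The genes described here encode the subunits of the mitochondrial respiratory chain and of ATP synthase. They were chosen by symbol: those that start with Ndufa, Ndufb, Ndufc, Ndufs or Ndufv (complex I), Sdha to Sdhd (complex II), Uqcr (complex III), Cox4 to Cox8 (complex IV) or Atp5 (complex V), without the Ndufaf assembly factors and without Cox7a1 and Cox8b. By this rule 80 of the 14606 genes listed in any tissue belong to the group, and 74 of them were listed in all 6 tissues. Complex I had 36 genes, complex II 4, complex III 8, complex IV 16 and complex V 16. Ndufa4 and its relative Ndufa4l2 were counted with complex IV, where the Ndufa4 protein is found, and Atp5s and Atp5sl were counted with complex V by their symbols only.

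The tissues came from male C57Bl6 mice with diet-induced obesity. They were taken 9 weeks after surgery, which was either a Roux-en-Y bypass of the stomach (RYGB) or a sham procedure. RYGB leads food from a small pouch of stomach straight to the jejunum, past the duodenum. Mice of both groups received an elemental liquid diet and later high fat diet again, with the sham group held to the weight of the RYGB group by limited feeding. They were killed at 10 am after a night without food. Effects of surgery and of limited feeding in the sham group cannot be told apart. The 51 libraries were of total RNA from duodenum (5 sham, 4 RYGB), jejunum (5 and 4), ileum (5 and 2), liver (4 and 5), white adipose tissue (WAT, 5 and 4) and gastrocnemius muscle (4 and 4), and carried 10 animal codes, 5 per operation. For gut, villi were loosened in cold EDTA and scraped off, and which surgical limb of the jejunum was sampled is not given. For the RYGB muscle libraries, the title and the surgery entry give RYGB while another entry names a sham source, and the former were followed.

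The respiratory chain sits in the inner mitochondrial membrane. Complexes I and II take electrons from NADH and succinate, complex III passes them on to cytochrome c, complex IV hands them to oxygen, and ATP synthase (complex V) makes ATP with the proton gradient that complexes I, III and IV build. Most subunits are encoded in the nucleus and imported, and a small set is encoded in mitochondrial DNA. In adipose tissue the chain is known for its abundance in brown and beige fat cells, where uncoupling protein 1 (Ucp1) lets protons back across the membrane and releases heat. No gene of mitochondrial DNA was listed in the tables, so the values below concern nuclear genes only.

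The values are CPM (read counts scaled to the library total), deposited with 1 decimal and without read totals, so the depth of each library is unknown. The listed CPM summed to between 978879 and 993560 per library. By summed level, each tissue held markers of its label. The 12 hepatocyte genes summed to at least 47126 CPM in every liver library and 12 adipocyte genes to at least 28434 CPM in WAT. The sums were at least 109796 CPM for 10 skeletal muscle genes in muscle and 25499 CPM for 14 enterocyte genes in each gut library. The liver list was uneven: in sham livers Alb had 27729 to 35255 CPM, but Apoa2 24.2 to 193.4 CPM and Serpina1a 7.5 to 87.3 CPM. Each library's share of CPM in the subunit genes is given first, and each tissue's genes were then compared with limma on log2(CPM + 1). The test was two-sided, p-values were adjusted by Benjamini-Hochberg over every gene in the table, and the threshold was 0.05. A fold is the ratio of the mean CPM, and SE is the standard error of the log2 fold change. Subunit genes have short transcripts, with a median of 760.5 bases in WAT against 2837 bases for all genes listed there, so each library was also measured for the level of short against long transcripts.

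Because subunit genes of all complexes moved together in WAT (below), the 250 bases before their starts were searched for 4 short motifs, on both strands. The motifs were those of nuclear respiratory factor 1 (NRF1, GCGCA, then any base, then GCGC), the ETS family to which Gabpa belongs (CCGGAAG), estrogen-related receptors (ERR, AAGGTCA) and YY1 (AAGATGG), factors known to act on genes of the chain. RefSeq start windows on GRCm38.p6 were held for 66 of the 80 genes, as 72 windows. The NRF1 letters were in 13 of the 72 windows (18.1%), against 3.74% of all 32851 windows and 7.68% of the 12963 windows of genes listed in WAT. The ETS letters were in 16.7% (6.91% of all and 12.9% of the WAT-listed windows), the ERR letters in 6.94% (4.08% and 2.87%) and the YY1 letters in 2.78% (4.49% and 4.1%). All 66 genes with a window but 1 were listed in WAT, and there the 12 with NRF1 letters had a median log2 fold change of 1.69 and the 53 without them 1.74. The 17 NRF1 matches lay in 12 genes of complexes I, II, IV and V, and 3 each were in the windows of Ndufb4 and Sdha. Positions are relative to the RefSeq start, and 9 of the 17 stretches overlap the span that GENCODE gives their gene. All 13 windows with NRF1 letters overlapped an annotated exon, as 56 of the 72 windows did. The 30-base stretches below show 12 of them, with the matched letters in capitals, each in the direction of its gene.
Ndufa11 (chr17:56717692-56717721, plus strand): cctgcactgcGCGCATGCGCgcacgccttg
Ndufb4 (chr16:37654371-37654400, minus strand): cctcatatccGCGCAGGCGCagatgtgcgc
Ndufb4 (chr16:37654428-37654457, minus strand): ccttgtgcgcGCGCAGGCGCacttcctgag
Ndufb4 (chr16:37654540-37654569, minus strand): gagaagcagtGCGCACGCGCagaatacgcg
Ndufs6 (chr13:73328479-73328508, minus strand): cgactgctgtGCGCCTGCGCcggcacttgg
Sdha (chr13:74350231-74350260, minus strand): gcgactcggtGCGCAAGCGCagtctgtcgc
Sdha (chr13:74350276-74350305, minus strand): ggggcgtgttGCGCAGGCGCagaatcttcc
Sdha (chr13:74350319-74350348, minus strand): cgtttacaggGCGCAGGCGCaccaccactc
Sdhd (chr9:50603909-50603938, minus strand): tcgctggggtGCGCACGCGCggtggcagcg
Cox6a1 (chr5:115349056-115349085, minus strand): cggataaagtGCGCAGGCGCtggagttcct
Cox6a1 (chr5:115349101-115349130, minus strand): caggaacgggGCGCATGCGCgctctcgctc
Atp5k (chr5:108434430-108434459, minus strand): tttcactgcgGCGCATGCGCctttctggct
Whole windows are shown for 3 genes whose window overlapped no annotated exon. They are those with the smallest adjusted p in WAT among windows with an ETS match (Ndufb6), an ERR match (Atp5g3) and no match to any of the motifs (Cox5a), with matched letters in capitals.
Ndufb6 (chr4:40279422-40279671, minus strand): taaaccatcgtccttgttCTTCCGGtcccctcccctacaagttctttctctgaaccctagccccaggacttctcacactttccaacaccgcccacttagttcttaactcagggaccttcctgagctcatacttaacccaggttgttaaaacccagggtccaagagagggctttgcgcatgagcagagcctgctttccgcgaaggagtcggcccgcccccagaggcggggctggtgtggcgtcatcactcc
Atp5g3 (chr2:73911327-73911576, minus strand): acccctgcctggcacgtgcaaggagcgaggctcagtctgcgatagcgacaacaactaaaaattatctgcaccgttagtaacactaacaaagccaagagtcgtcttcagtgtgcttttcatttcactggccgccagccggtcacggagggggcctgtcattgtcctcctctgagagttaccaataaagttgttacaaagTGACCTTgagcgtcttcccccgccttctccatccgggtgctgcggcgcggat
Cox5a (chr9:57520982-57521231, plus strand): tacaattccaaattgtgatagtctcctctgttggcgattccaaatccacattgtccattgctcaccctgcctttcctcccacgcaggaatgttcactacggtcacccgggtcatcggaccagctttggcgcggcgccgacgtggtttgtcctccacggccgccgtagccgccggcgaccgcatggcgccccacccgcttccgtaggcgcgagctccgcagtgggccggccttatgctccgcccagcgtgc
The ETS letters began 232 bases before the start of Ndufb6, and the ERR letters 52 bases before that of Atp5g3. All 3 genes rose in WAT, whether or not a match was present. A match says only that the letters are in the window.

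In WAT, 74 of the 78 listed subunit genes rose after RYGB and 1 fell. Among all 12690 genes of that tissue, 14.3% rose and 26.3% fell. The rises covered every complex: 36 of 36 genes of complex I, 4 of 4 of complex II, 8 of 8 of complex III, 12 of 14 of complex IV and 14 of 16 of complex V. The median log2 fold change of the 78 genes was 1.73, against -0.16 for all genes. By complex, the median was 1.74 in complex I, 1.61 in II, 2.05 in III, 1.76 in IV and 1.36 in V. In 71 of the 78 genes every RYGB library was above every sham library, which held for 11.7% of all genes.

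Together the subunit genes took 0.741%, 0.832%, 0.696%, 0.662% and 0.893% of the CPM in the 5 sham libraries of WAT. In RYGB libraries 1 to 4 they took 2.32%, 3.40%, 1.37% and 2.95%. The groups did not overlap, and RYGB 3 was the lowest of its group for all 5 complexes, at 1613 CPM in complex II against 2862 to 2966 CPM in the other RYGB libraries. In bulk tissue, more cells of a type and more RNA per cell cannot be told apart.

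**Figure D1:**
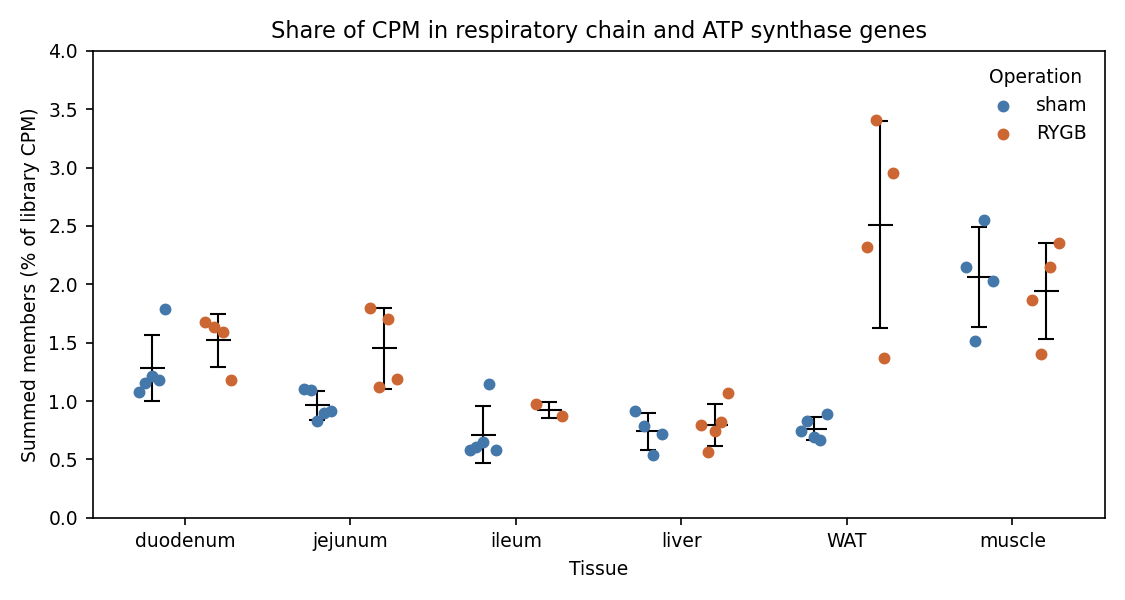
Share of each library's CPM (percent, y axis) in the respiratory chain and ATP synthase genes, by tissue. Points are libraries, and bars are the mean and SD of the sham (blue) and RYGB (orange) groups. In WAT the RYGB libraries lie between 1.37% and 3.40%, above all sham libraries, while the groups overlap in liver and muscle.

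Complex I accepts electrons from NADH. Ndufs1, its largest subunit (ENSMUSG00000025968, chr1:63143596-63176833), had 150.7, 172.4, 142.3, 159.5 and 172.4 CPM in the sham libraries and 462.9, 322.4, 297.6 and 409 CPM in the RYGB libraries. Its level was 2.34-fold higher, a log2 fold change of 1.20 (SE 0.155, limma adjusted p = 0.000398). Every RYGB library was above every sham library, with RYGB 1 and 4 highest. Ndufa10, an accessory subunit (ENSMUSG00000026260, chr1:92439010-92473860), had 64.4, 82.2, 54.1, 59.7 and 80.3 CPM in sham and 254.5, 351.6, 144.3 and 331.7 CPM in RYGB libraries. It rose by 1.91 (SE 0.252, limma adjusted p = 0.000445), again without overlap, and RYGB 3 was the lowest of the operated mice. The 7 core subunits of complex I, which carry its flavin and iron-sulfur centres or line its quinone site, all rose, with a median log2 fold change of 1.75. Over the 36 genes the rises ran from 0.98 for Ndufa7 to 2.13 for Ndufa1, the latter a small membrane subunit. Only Ndufb4 and Ndufs7 of this complex rose with overlap between the groups.

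Complex II, succinate dehydrogenase, is the member of the chain that also belongs to the citric acid cycle. Sdhd, one of its membrane anchors (ENSMUSG00000000171, chr9:50596357-50603812), had the smallest adjusted p of all subunit genes in WAT. It stood at 135.1, 127.5, 127.5, 141.3 and 133.6 CPM in sham and at 459.7, 547.6, 267.6 and 555.9 CPM in RYGB libraries, a log2 fold change of 1.72 (SE 0.204, limma adjusted p = 0.000266). The sham libraries were within 14 CPM of each other, and all RYGB libraries were above them. Sdhb, the iron-sulfur subunit (ENSMUSG00000009863, chr4:140961203-140979193), had 127.9, 169.2, 128.6, 125.2 and 166.2 CPM in sham and 554.4, 729.2, 291.4 and 690.9 CPM in RYGB libraries. It rose by 1.90 (SE 0.254, limma adjusted p = 0.000464) without overlap. The catalytic subunit gene Sdha had 523.9, 565.5, 504.2, 510 and 719.6 CPM in sham and 1588.3, 1408.5, 901.3 and 1385.5 CPM in RYGB libraries, and was 2.34-fold higher (limma adjusted p = 0.00112). The anchor gene Sdhc was 2.93-fold higher (limma adjusted p = 0.000508).

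Complex III held the largest rise of the group. Uqcrq, a small subunit next to cytochrome b (ENSMUSG00000044894, chr11:53427922-53430831), had 25.2, 27.3, 24.3, 19.3 and 32 CPM in sham and 191.7, 475.5, 86.3 and 331.1 CPM in RYGB libraries. Its mean was 10.6-fold higher, a log2 fold change of 3.11 (SE 0.401, limma adjusted p = 0.000403). Even RYGB 3 was above the highest sham library. Uqcrfs1, the Rieske iron-sulfur protein (ENSMUSG00000038462, chr13:30540308-30545362), had 145.2, 161.9, 140.3, 156.8 and 184 CPM in sham and 647.7, 1052.2, 358 and 879.3 CPM in RYGB libraries, and rose by 2.11 (SE 0.270, limma adjusted p = 0.000386) without overlap. Uqcr10, another small subunit, was 6.80-fold higher (log2 fold change 2.52, SE 0.361, limma adjusted p = 0.000655). The smallest rises of the complex were those of its large core proteins, 1.15 for Uqcrc2 and 1.54 for Uqcrc1.

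In complex IV, cytochrome c oxidase, Cox5a (ENSMUSG00000000088, chr9:57521274-57532426) had 93.4, 116.5, 95.4, 97 and 128.4 CPM in sham and 508.9, 732.5, 265.5 and 751.7 CPM in RYGB libraries. It rose by 2.30 (SE 0.279, limma adjusted p = 0.000301), and the groups did not overlap. Cox7b (ENSMUSG00000031231, chrX:106015700-106022450) had 50.6, 52.9, 46.2, 42.7 and 60.2 CPM in sham and 202.7, 350, 110.7 and 314.3 CPM in RYGB libraries, a rise of 2.13 (SE 0.292, limma adjusted p = 0.000526) without overlap. The largest rise here was that of Cox6b1, on the outer face of the complex, at 2.33 (SE 0.357, limma adjusted p = 0.000913). Its levels were 130.1, 103.2, 106.4, 81 and 162.9 CPM in sham and 491.5, 1019.6, 265.7 and 830.1 CPM in RYGB libraries.

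Cox7a2 and Cox7a2l are relatives, the second a supercomplex assembly factor rather than a plain subunit. Cox7a2 had 68.2, 71.7, 73.6, 63 and 85.8 CPM in sham and 174.8, 370.2, 150.3 and 307.9 CPM in RYGB libraries of WAT, a rise of 1.69 without overlap. Cox7a2l had the smallest rise of complex IV, 0.66 (SE 0.220, limma adjusted p = 0.0345), with 57, 59.1, 48.4, 48.3 and 64.2 CPM in sham and 65.7, 129.6, 62.6 and 109.9 CPM in RYGB libraries. There RYGB 3 lay inside the sham range and RYGB 1 just above it.

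Complex V is the ATP synthase. Its small membrane subunit Atp5k (ENSMUSG00000050856, chr5:108433244-108434448), shown above with an NRF1 match, had 39.7, 40.8, 31.5, 25.5 and 52.2 CPM in sham and 173.8, 365.6, 99.8 and 295.4 CPM in RYGB libraries. It rose by 2.47 (SE 0.346, limma adjusted p = 0.000598) without overlap. Atp5f1, subunit b of the stalk (ENSMUSG00000000563, chr3:105942698-105960099), had 95.7, 106, 107.1, 110.4 and 120.6 CPM in sham and 255, 354.5, 185.1 and 350 CPM in RYGB libraries, and rose by 1.35 (SE 0.192, limma adjusted p = 0.000631) without overlap. The catalytic subunit gene Atp5b rose by 1.45, from a mean of 1135 to 3231 CPM, the highest mean CPM among the subunit genes in WAT. Atp5j2, Atp5d and Atp5o rose by more than 2 on the log2 scale, and the smallest rise was 0.83, for the stalk subunit Atp5j.

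**Figure D2:**
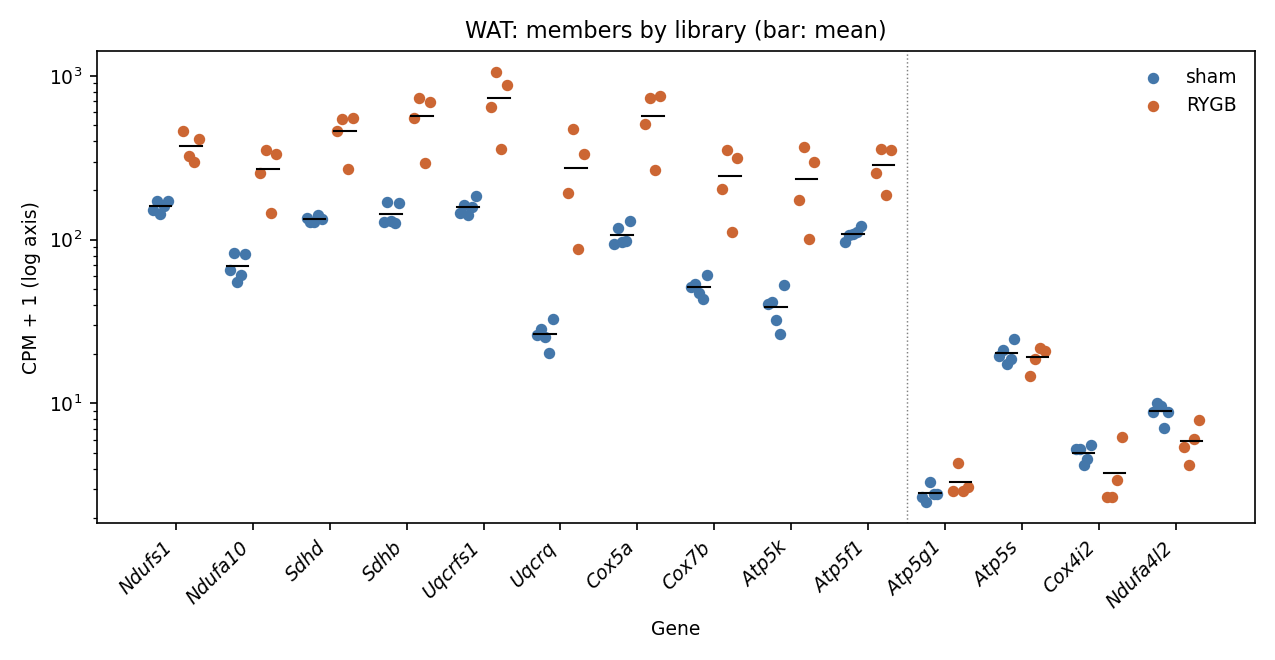
Level of 14 subunit genes in each WAT library (CPM + 1, log axis), sham in blue and RYGB in orange, with bars at the group means. Left of the dotted line are up to 2 genes per complex with the smallest adjusted p, which do not overlap between groups. Right of it are the 3 genes that did not pass the threshold and Ndufa4l2, which fell.

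The exceptions were isoforms and genes named after the complex without being plain subunits. Ndufa4l2, a relative of Ndufa4 known to be induced by low oxygen, was at 7.9, 9.1, 8.7, 6.1 and 7.9 CPM in sham and at 4.4, 3.2, 5.1 and 6.9 CPM in RYGB libraries. It fell by 0.63 on the log2 scale (SE 0.211, limma adjusted p = 0.0356), with RYGB 4 inside the sham range. Its paralogue Ndufa4 had 378.9, 493.6, 369.1, 300.1 and 398.9 CPM in sham and 1102.1, 1979, 731.2 and 1689.5 CPM in RYGB libraries, and rose by 1.74 (SE 0.275, limma adjusted p = 0.0011).

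Cox4i2, the isoform of subunit 4 tied to low oxygen in lung, was at 4.3, 4.3, 3.2, 3.6 and 4.6 CPM in sham and at 1.7, 1.7, 2.4 and 5.2 CPM in RYGB libraries. Its log2 fold change of -0.50 did not pass (SE 0.260, limma adjusted p = 0.144), since RYGB 4 was the highest library of all. The ubiquitous Cox4i1 had 165.9, 171.5, 140.2, 118.7 and 198 CPM in sham and 491.4, 1054.8, 293.7 and 841.1 CPM in RYGB libraries, a rise of 1.93 (SE 0.330, limma adjusted p = 0.00154).

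A small family of genes encodes the same mature subunit c of ATP synthase, of which Atp5g2 was not analysed here. Atp5g1 was at 1.7, 1.5, 2.3, 1.8 and 1.8 CPM in sham and at 1.9, 3.3, 1.9 and 2.1 CPM in RYGB libraries, and its log2 fold change of 0.21 did not pass (SE 0.192, limma adjusted p = 0.390). Atp5g3 had 558.2, 545.3, 534.6, 458.2 and 673.7 CPM in sham and 1318.7, 1632.6, 811.9 and 1241.4 CPM in RYGB libraries, and rose by 1.14 (SE 0.205, limma adjusted p = 0.00195). Atp5s, counted here by its symbol, averaged 19.34 CPM in the sham group and 18.1 CPM after RYGB, with overlap (log2 fold change -0.10, limma adjusted p = 0.652).

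Per kilobase of transcript, the highest gene of each complex in sham WAT was Ndufa2 (194 CPM per kilobase), Sdha (195), Uqcrh (188), Ndufa4 (859) and Atp5g3 (776), in the order of complexes I to V. In the RYGB libraries the highest genes were Ndufa2 (614), Sdhb (496), Uqcrh (872), Ndufa4 (3043) and Atp5g3 (1752). Only in complex II did the first place pass to another gene, and there Sdha followed at 455. Uqcrh, the hinge protein of complex III, had 97.6, 102.1, 96.8, 90.8 and 127.3 CPM in sham and 314.2, 721.7, 211.6 and 659.9 CPM in RYGB libraries. Ndufa2 had 106.5, 123.6, 101, 82.8 and 141.2 CPM in sham and 288.3, 474.8, 153 and 487.8 CPM in RYGB libraries. Neither gene overlapped between the groups. The levels per kilobase are descriptions, with no test between genes.

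Other mitochondrial genes were looked at in lists. In WAT, 13 of 14 genes of the citric acid cycle rose, among them citrate synthase (Cs, 1.62), while Idh2 stood at -0.10 and did not pass. Of 13 other genes tied to the chain, 10 rose, including cytochrome c (Cycs, 2.31), cytochrome c1 (Cyc1, 2.04) and glycerol-3-phosphate dehydrogenase (Gpd2, 2.30). Assembly factors rose in 31 of 44 cases and none fell, with a median of 0.79. Genes of mitochondrial import and mass rose in 13 of 18 cases and 1, Tomm20, fell by 0.53. The median of these 18 genes was 0.80, that of the citric acid cycle genes 1.61 and that of the subunit genes 1.73.

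Of 16 listed regulators of mitochondrial genes, 5 rose and 3 fell in WAT. The coactivator Ppargc1a had 26.2, 23.4, 22.9, 27.6 and 26.8 CPM in sham and 64.9, 92.5, 32.7 and 55.9 CPM in RYGB libraries, a rise of 1.16 (SE 0.243, limma adjusted p = 0.00422) without overlap. Ppargc1b rose by 1.87 and Esrra, the estrogen-related receptor alpha, by 1.69. Nrf1, which encodes the factor whose letters are shown above, stood at -0.07 and Tfam, which packs mitochondrial DNA, at 0.17, and neither passed (limma adjusted p = 0.761 and 0.462). Gabpa and Yy1 fell by 0.65 and 0.57.

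Several other measures moved with the operation in WAT. Of 9 listed brown and beige fat genes, 8 rose and Prdm16 fell by 0.62, and their summed level was 57.9 to 112 CPM in sham and 323 to 3985 CPM in RYGB libraries. Ucp1 was at 0.6, 1.4, 0.4, 35 and 1.3 CPM in sham and at 18.6, 191.3, 149.4 and 2927.4 CPM in RYGB libraries. Elovl3 was at 27.7, 110.9, 9.5 and 90.6 CPM and Dio2 at 5.5, 41.6, 4.7 and 34.7 CPM in RYGB 1 to 4. In sham libraries Elovl3 was at 0.1 to 0.9, Dio2 at 0.1 to 0.4 and Cox7a1 at 0.3 to 1.0 CPM. Ucp1 also reached 1 CPM in too few sham libraries to be listed by them alone. Ucp1, Elovl3, Dio2 and Cox7a1 were thus listed through the RYGB libraries, where they are high. Their part in the 8 and in the summed level therefore follows from the listing. The subunit genes were highest in RYGB 2 and lowest in RYGB 3, as Elovl3, Dio2 and Ppargc1a were, whereas Ucp1, Cidea, Cox8b, Cox7a1 and Otop1 were highest in RYGB 4. Cidea, Cox8b and Cox7a1 were also lowest in RYGB 3. The part of brown and beige fat genes in the result was not tested. The isoforms Cox7a1 and Cox8b, kept out of the subunit genes and part of this list, rose by 3.89 and 4.44. Of 12 general adipocyte genes, 5 rose and the leptin gene Lep fell. Their sum was 28434 to 36138 CPM in sham and 42971 to 87116 CPM in RYGB libraries.

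For other cell types, 6 smooth muscle genes summed to 493.8 to 1261 CPM in sham and 139.7 to 282.1 CPM in RYGB libraries of WAT (1 rose, 2 fell). This gap came from Acta2, at 247.3 to 1002.5 CPM in sham and 29.8 to 71.8 CPM in RYGB libraries. Des, Myh11, Smtn, Synm and Tagln each overlapped between the groups. Of 10 hepatocyte genes listed in WAT, 3 rose and 3 fell. Their sum was 2152 to 4694 CPM in sham and 6691 to 20819 CPM in RYGB libraries, mostly from Cyp2e1 and Pck1, which fat cells also express, while albumin (Alb) fell from a mean of 137.2 to 61.1 CPM. The 12 leukocyte genes summed to 548.9 to 936.7 CPM and 491.6 to 1651 CPM, and 2 of them fell. The 9 skeletal muscle genes summed to 104.8 to 150.8 CPM in sham and 57.9 to 285 CPM in RYGB libraries, with 1 higher and 1 lower, against subunit sums of 13677 to 34042 CPM in the RYGB libraries. The part of these cell types in the result was not tested.

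Transcript length also moved with the operation in WAT. Each gene's log2 level was taken relative to its sham mean, and the median over other genes with transcripts over 3000 bases was taken from the median over those under 1000 bases. This measure was -0.14 to 0.11 in sham and 0.77, 1.46, 0.35 and 1.08 in RYGB libraries 1 to 4, the same order as the share of the subunit genes. Among other genes, 37.1% of those under 1000 bases rose, 18.0% of those from 1000 to 3000 bases and 6.25% of those above. Among the subunit genes the shares were 94.0% of 50 genes under 1000 bases, 96.3% of 27 genes from 1000 to 3000 bases and the 1 gene above, Sdhc. With each library's trend on transcript length removed, 71 of the 78 genes rose and 2 fell, with a median of 1.33. The cause of the shift with length was not tested.

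**Figure D3:**
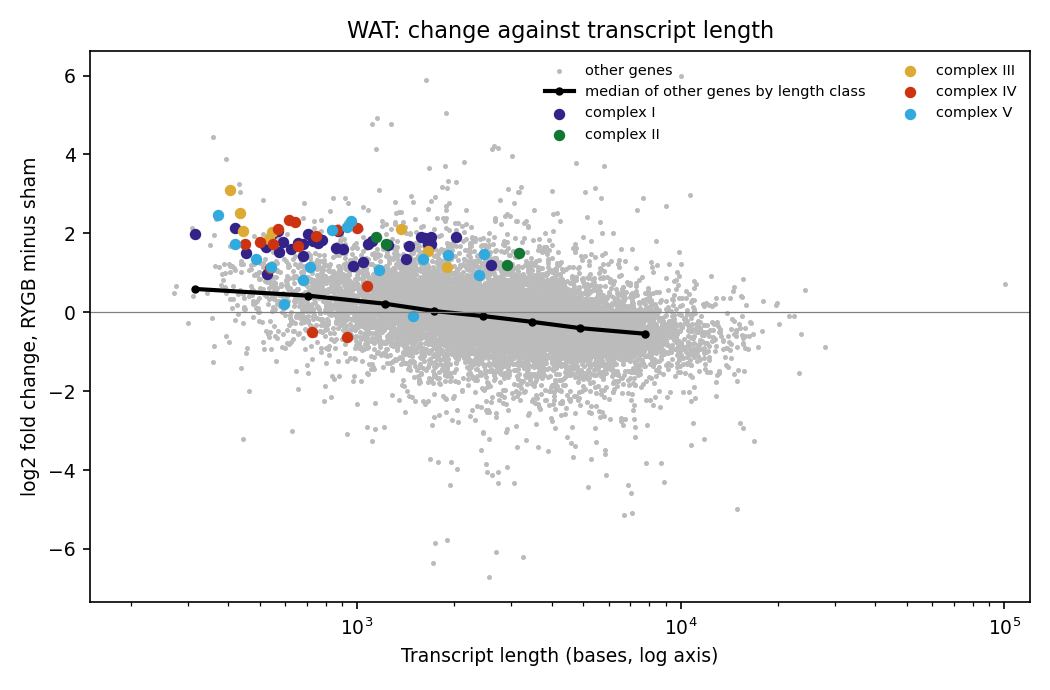
Change in WAT (log2 fold change, RYGB minus sham, y axis) against transcript length in bases (x axis, log scale) for the subunit genes, coloured by complex, and for all other genes in grey. The black line joins the medians of the other genes in length classes. Subunit genes of all lengths lie mostly between 1 and 2.5, above the line.

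In the jejunum, 14 of the 77 listed subunit genes rose after RYGB and none fell, whereas 6.32% of all 11021 genes rose and 6.29% fell. Before adjustment, p was below 0.05 for 38 of the 77 genes (49.4%), against 30.5% of all genes. The rising genes were 8 of 36 in complex I, 1 of 4 in complex II, 2 of 8 in complex III, 1 of 13 in complex IV and 2 of 16 in complex V. The median log2 fold change was 0.57 over the 77 genes and 0.08 over all genes, and 73 of the 77 were above 0. In 19 genes every RYGB library was above every sham library, and in none was every one below, where 7.53% and 6.75% of all genes were.

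Complex III gave the smallest adjusted p. Uqcrc1, a core protein (ENSMUSG00000025651, chr9:108936633-108949623), had 218.6, 268.4, 142.4, 186.4 and 257.2 CPM in sham and 450.3, 395.5, 684.5 and 414.6 CPM in RYGB libraries. It was 2.27-fold higher, a log2 fold change of 1.18 (SE 0.228, limma adjusted p = 0.0122), and all RYGB libraries were above all sham libraries. Uqcr11, a small subunit, had 31.9, 33, 42.5, 25.8 and 29.7 CPM in sham and 68.6, 43.5, 83 and 43 CPM in RYGB libraries. It rose by 0.81 (SE 0.226, limma adjusted p = 0.0396), and RYGB 2 and 4 were just above sham 3.

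In complex I, Ndufv1, which binds the flavin that takes electrons from NADH (ENSMUSG00000037916, chr19:4007384-4012806), had 53.3, 47.6, 27.1, 36.9 and 42.4 CPM in sham and 137.1, 67.3, 140.3 and 70 CPM in RYGB libraries. It rose by 1.25 (SE 0.276, limma adjusted p = 0.0189) without overlap. The accessory subunit Ndufa13 had 22, 22.3, 11.4, 15.8 and 22.1 CPM in sham and 70.6, 31.1, 72 and 29.3 CPM in RYGB libraries, a rise of 1.31 (SE 0.320, limma adjusted p = 0.0262) without overlap. In both genes RYGB 1 and 3 were high and RYGB 2 and 4 lay nearer to the sham mice. Ndufv2, which like Ndufv1 is a core subunit, rose by 0.89, and the other genes of this complex that rose were Ndufs6 (1.46), Ndufb10 (1.25), Ndufv3 (1.16), Ndufa12 (0.84) and Ndufa10 (0.81).

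In complex V, Atp5b (ENSMUSG00000025393, chr10:128083273-128090391) had 1213.3, 1317.8, 969.3, 1061.4 and 1097.1 CPM in sham and 2389.5, 1506, 2559.3 and 1863.2 CPM in RYGB libraries, and rose by 0.85 (SE 0.192, limma adjusted p = 0.0200). The second was Atp5g1, with 5.7, 4.9, 6.2, 3.6 and 3 CPM in sham and 16.3, 7.1, 14.2 and 6.6 CPM in RYGB libraries (1.02, SE 0.302, limma adjusted p = 0.0485). Neither overlapped between the groups. Atp5g3, of the same gene family for subunit c, had 0.29 in the jejunum (limma adjusted p = 0.236). The effect in the jejunum minus that in WAT was 0.95 for Atp5g1, which did not pass (SE 0.391, limma adjusted p = 0.0929), and -1.06 for Atp5g3 (SE 0.249, limma adjusted p = 0.00963).

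Complexes II and IV had 1 rising gene each. Sdhc, a membrane anchor (ENSMUSG00000058076, chr1:171127165-171150603), had 95.5, 106.6, 53.2, 80 and 83.1 CPM in sham and 269.4, 112.2, 228.2 and 127.9 CPM in RYGB libraries, a rise of 1.07 (SE 0.287, limma adjusted p = 0.0353). Cox5b (ENSMUSG00000061518, chr1:36691449-36693681) had 15.3, 15.3, 21.7, 12.2 and 14.6 CPM in sham and 54.7, 23.6, 49.7 and 24.1 CPM in RYGB libraries, a rise of 1.13 (SE 0.280, limma adjusted p = 0.0267). In each gene RYGB 2 was only just above the highest sham library. Cox6b1 had a larger log2 fold change, 1.41, and did not pass (SE 0.512, limma adjusted p = 0.0941), with 137, 153, 31.5, 103.4 and 158.7 CPM in sham and 443.8, 166.3, 454.3 and 163.6 CPM in RYGB libraries. There sham 3 was far below its group and RYGB 2 and 4 just above it. Of the genes with NRF1 letters, Ndufs6 was the only one of the 14, and it had 6.1, 7.1, 1.8, 4.3 and 5 CPM in sham and 23.7, 8.1, 23.5 and 8.7 CPM in RYGB libraries. Of the 14 genes that rose in the jejunum, 13 were among the 74 that rose in WAT, and the other was Atp5g1. Since 94.9% of the 78 genes rose in WAT, nothing is read from this overlap.

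The jejunal counts depended on single libraries, RYGB 1 and 3 among them. The subunit genes summed to 17927 and 17045 CPM in these libraries, to 11229 and 11854 CPM in RYGB 2 and 4, and to 8257 to 10995 CPM in sham libraries. Without RYGB 1 and 3, limma called none of the 77 genes, and their median was 0.20. That fit kept only RYGB 2 and 4 of the operated mice, which lowers the power for any gene. The smallest adjusted p then among the 14 genes was that of Uqcrc1, 0.0823. With 1 library left out at a time, 1 to 27 genes passed, all of them higher: 1 without RYGB 1 or RYGB 3, 27 without RYGB 2, 24 without RYGB 4, 2 without sham 4, 3 without sham 1 or sham 2, and 5 without sham 3 or sham 5. Of all genes, 2.04% to 9.79% rose in these fits and 0.944% without both RYGB 1 and 3. The short transcript measure was 0.67 and 0.45 in RYGB 1 and 3, 0.00 and 0.12 in RYGB 2 and 4, and -0.16 to 0.10 in sham libraries. With the trend on length removed, 14 genes rose and the median was 0.33.

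**Figure D4:**
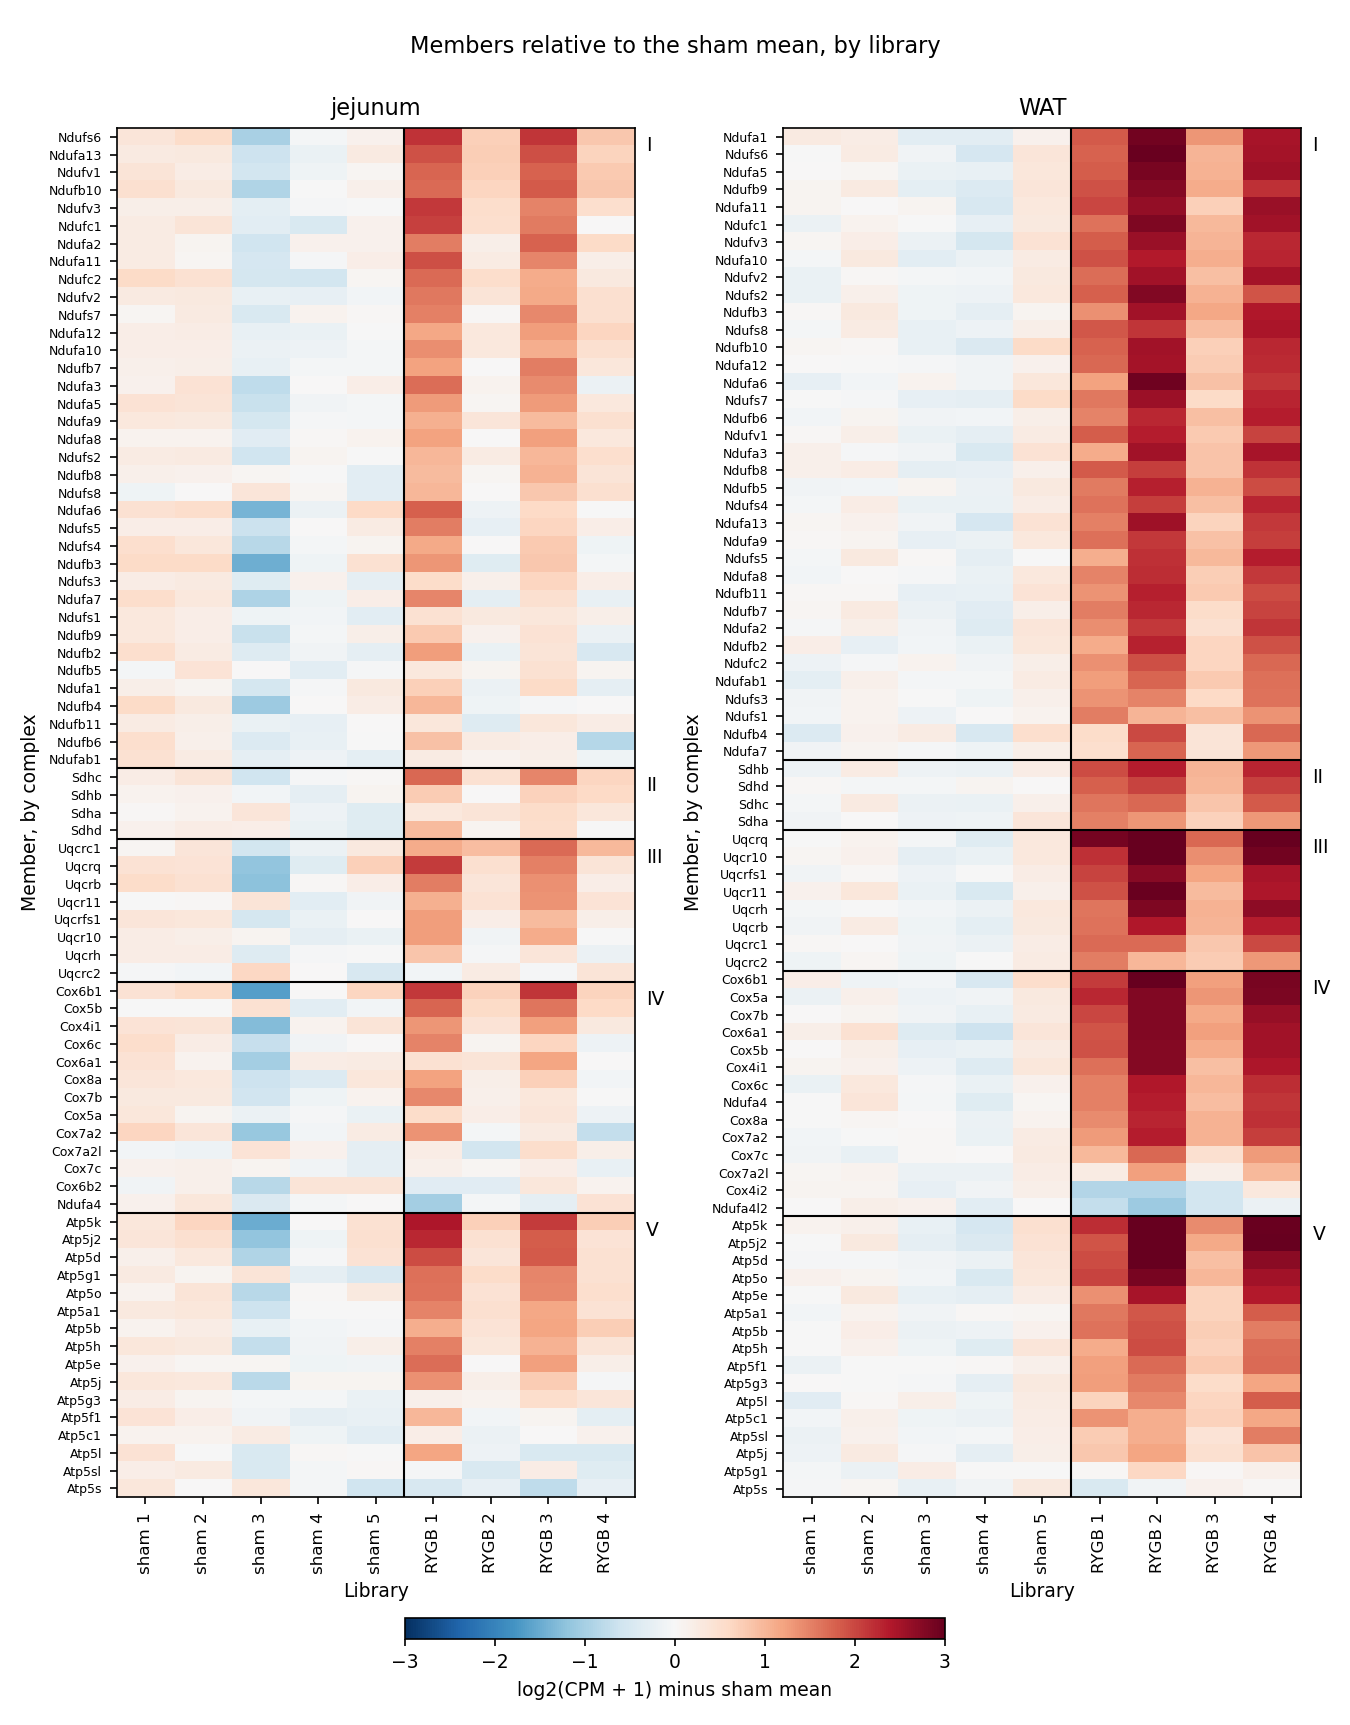
Level of each subunit gene in each library of jejunum (left) and WAT (right) as log2(CPM + 1) minus the sham mean, on a colour scale from -3 (blue) to 3 (red). Rows are genes, grouped by complex and ordered by log2 fold change, and columns are libraries. In the jejunum RYGB 1 and 3 are red across complexes and sham 3 is pale to blue, while in WAT all 4 RYGB libraries are red for nearly all genes, RYGB 3 the least.

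The other lists are to be read beside the 6.32% of all genes that rose in the jejunum. Of 14 citric acid cycle genes 3 rose (among them Idh3b and Suclg2), of 17 import and mass genes 5 rose, and of 43 assembly factors 2 rose (Uqcc2 and Cox10), with none falling. Ppargc1a fell by 1.07 in the jejunum (limma adjusted p = 0.0222), from 289.1, 294.7, 320.3, 288.8 and 171.4 CPM in sham to 95, 95.3, 154.9 and 182 CPM in RYGB libraries, with RYGB 4 above sham 5. Ppargc1b rose by 1.30 (limma adjusted p = 0.0359). Of 12 Paneth and goblet cell genes 5 rose. Their sum was 2424 to 5853 CPM in sham and 4291, 11164, 8917 and 7386 CPM in RYGB 1 to 4. The genes of this list differed in order. Reg3g was highest in RYGB 2 (6436.8 CPM), Ang4 in RYGB 3 (187.5 CPM) and Fcgbp in RYGB 4 (4888.5 CPM). Defa24 and Spink4 were highest in RYGB 1 (27.0 and 47.0 CPM). The 16 proliferation genes summed to 62 to 123.4 CPM in sham and to 109.1, 90.8, 256.5 and 357 CPM in RYGB 1 to 4, and 1 of them rose. The 14 enterocyte genes, of which 1 rose and 3 fell, summed to 65947 to 99566 CPM in sham and 71178 to 84673 CPM in RYGB libraries. The part of these cells in the result was not tested.

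The duodenum, which RYGB takes out of the food's path, had no subunit gene past the threshold among 76, where 0.128% of 10930 genes rose and 0.22% fell. At an unadjusted p below 0.05, limma gave 15 of the 76 genes (19.7%) against 22.7% of all genes. Their median was 0.18, close to the 0.15 of all genes. The smallest adjusted p was that of Ndufab1, the acyl carrier protein of complex I, at 0.0895. It had 16.8, 16.3, 14.6, 27.8 and 25.4 CPM in sham and 37.6, 34.8, 31.5 and 33.2 CPM in RYGB libraries, without overlap and with a log2 fold change of 0.78 (SE 0.221). Cox5a was the only other gene without overlap, so that 2 of the 76 genes lay higher in every RYGB library, against 5.88% of all genes. Next came Atp5j and Atp5f1 at 0.68 and 0.94 (limma adjusted p = 0.0988 and 0.0994), both with overlap. The largest log2 fold change, 1.09, was that of Ndufb6, which had 104, 31.6, 30.6, 69.8 and 55.2 CPM in sham and 71.5, 199.7, 100.7 and 112 CPM in RYGB libraries (limma adjusted p = 0.127).

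Single duodenal libraries stood apart. The subunit genes summed to 17844 CPM in sham 5 and to 10801 to 12179 CPM in the other sham libraries. In RYGB 4 the sum was 11835 CPM, against 15906 to 16728 CPM in RYGB 1 to 3. With limma's library weights, which lower the influence of atypical libraries, 17 of the 76 genes rose, beside 14.4% of all 10930 genes. Without sham 5, 1 gene rose, beside 2.77% of all genes. The 15 proliferation genes listed in the duodenum summed to 64.7 to 111.2 CPM in sham and 73.2 to 939 CPM in RYGB libraries. Of them 3 rose and 0 fell, and their part in the values was not tested. Pancreatic transcripts summed to 904 to 91798 CPM in sham and 671 to 16245 CPM in RYGB libraries. The list holds Zg16, also a goblet cell gene, which made up most of the lowest sums: 831.7 CPM in sham 5 and 642.4 CPM in RYGB 4. Pancreatic lipase (Pnlip) was at 10.0 and 3.5 CPM in these libraries. Without the libraries rich in pancreatic transcripts (sham 1, 2 and 3 and RYGB 2) no gene of the whole table passed, subunit genes included. That fit kept only sham 4 and 5 and RYGB 1, 3 and 4. With so few libraries it had little power, and nothing is read from the loss of calls.

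In the ileum, with 2 RYGB libraries, no gene of the 77 passed and none of all 12041 genes did (0% in each direction). At an unadjusted p below 0.05, limma gave 8 of the 77 genes (10.4%) against 3.64% of all genes. In 8 genes both RYGB libraries were above all sham libraries, where 3.15% of all genes were. The median was 0.29, against -0.09 for all genes. Atp5f1 had 85.2, 115.7, 93.1, 115.2 and 93.8 CPM in sham and 176.1 and 223.6 CPM in RYGB libraries, a log2 fold change of 0.98 (SE 0.233, limma adjusted p = 0.935). Sdhd had 131, 154.8, 137.8, 221.8 and 127.8 CPM in sham and 283.4 and 283.2 CPM in RYGB libraries, and Ndufb6 had 17, 14.3, 19.4, 36.3 and 22.8 against 47.7 and 52.4 CPM. In Sdhd and Ndufb6, sham 4 was the highest of its group, yet below both RYGB libraries. The subunit genes summed to 11449 CPM in sham 4 and to 5782 to 6482 CPM in the other sham libraries. Proliferation genes summed to 4846 CPM in sham 4 and to 53.3 to 178.1 CPM in the other sham libraries, and enterocyte genes to 25499 CPM against 84360 to 96656 CPM. Without sham 4, 1 gene rose, beside 0.233% of all genes. With limma's library weights none did. Cox6b2, a testis isoform of Cox6b1, was listed in jejunum and ileum only, at up to 1.8 and 4 CPM.

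**Figure D5:**
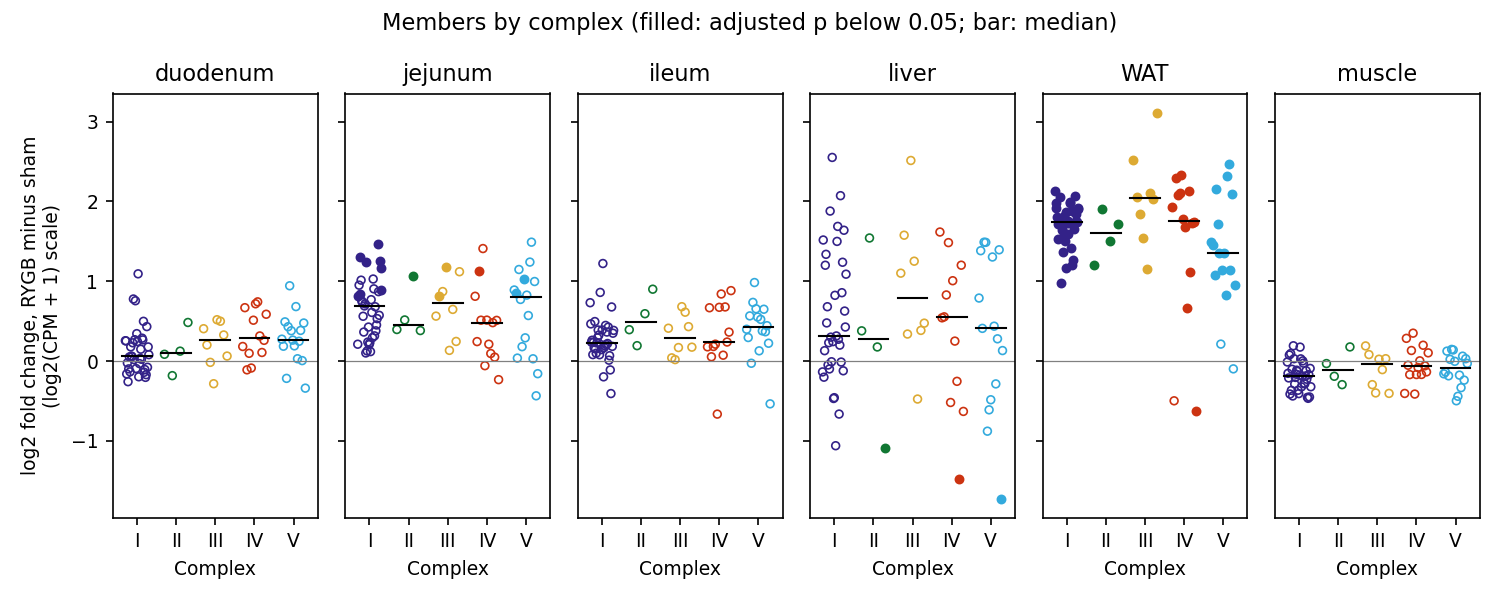
Log2 fold change (RYGB minus sham, y axis) of each subunit gene by complex (x axis) in the 6 tissues. Filled points passed the threshold of 0.05, open points did not, and bars are medians. The points stand near 1.73 in WAT and above 0 in the jejunum, spread widely in liver, and lie close to 0 in muscle.

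In the liver, 3 of the 74 listed genes fell and none rose, where 2.6% of 10285 genes fell and 2.03% rose. Before adjustment, p was below 0.05 for 27 of the 74 (36.5%), against 33.8% of all genes. In 4 genes, these 3 and Atp5f1, every RYGB library was below every sham library, where 8.01% of all genes were. The 3 genes came from different complexes. Atp5s, a coupling factor named after ATP synthase (ENSMUSG00000054894, chr12:69724950-69744660), had 51.7, 44.3, 73.4 and 45.3 CPM in sham and 18.2, 17, 8.5, 13.7 and 22.3 CPM in RYGB libraries. It fell by 1.72 on the log2 scale (SE 0.334, limma adjusted p = 0.0337), without overlap.

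Cox7c, a small subunit of complex IV (ENSMUSG00000017778, chr13:86044816-86046904), had 16.4, 14.7, 20.4 and 16.7 CPM in sham and 6.4, 4.7, 3.5, 6.3 and 7.1 CPM in RYGB livers. It fell by 1.47 (SE 0.336, limma adjusted p = 0.0424) without overlap. Sdhd had 383.7, 327.6, 555 and 400.1 CPM in sham and 280.5, 156.2, 168.7, 188.7 and 184.2 CPM in RYGB livers, and fell by 1.09 (SE 0.275, limma adjusted p = 0.0471). RYGB 1 was closest to the sham livers. Cox7c and Sdhd rose in WAT, each against its own sham group, and the difference between those tissues was not tested.

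The liver calls depended on single libraries. No subunit gene passed without sham 2, sham 3, sham 4, RYGB 2, RYGB 3 or RYGB 4, and of all 10285 genes 0.0292% to 0.136% then did. Without sham 1, 3 genes rose and 3 fell, beside 8.42% and 4.39% of all genes. Without RYGB 1, 15 rose and 4 fell, beside 13.4% and 8.5% of all genes. The log2 fold changes ran from -1.72 to 2.55, and their median of 0.42 compares with 0.26 for all genes. The subunit genes summed to 5393 to 9108 CPM in sham and to 5630 to 10662 CPM in RYGB livers, so the groups overlapped. The highest log2 fold changes were those of Ndufb11 (2.55, limma adjusted p = 0.0979) and Uqcrc1 (2.51, limma adjusted p = 0.0931), both low in sham livers with means of 2.17 and 2.20 CPM. Atp5b had 345.5, 234.6, 153.5 and 151.3 CPM in sham and 182.5, 430.2, 1101.7, 1082.8 and 511.6 CPM in RYGB livers (1.38, limma adjusted p = 0.0884), where RYGB 3 and 4 were the highest and RYGB 1 lay within the sham range. Cox4i1 was listed at 4.6, 6.4, 0.9 and 1.9 CPM in sham and at 1.2, 7.8, 88.7, 36.5 and 2.7 CPM in RYGB livers, so that RYGB 3 and 4 again stood out. Leukocyte genes summed to 63 to 196.1 CPM in sham and to 746.4, 415.7, 997.7, 350 and 87.7 CPM in RYGB livers 1 to 5. The 12 hepatocyte genes, of which 3 rose and 0 fell, summed to 47126 to 59331 CPM in sham and 55761 to 126569 CPM in RYGB livers. Albumin (Alb) was highest in RYGB 3 and 4, at 73977 and 93630 CPM against 27729 to 35255 CPM in sham. Cps1, of the same list, was at 3822 and 7254 CPM there against 6179 to 23181 CPM in sham. The short transcript measure was -0.11 to 0.11 in sham and 0.18 to 0.77 in RYGB livers, and the part of these measures in the values was not tested.

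In gastrocnemius muscle, where oxidative fibres are known to be rich in the chain, limma called none of the 79 genes and none of all 11594 genes (0% in each direction). At an unadjusted p below 0.05 there was no subunit gene, against 7% of all genes. The median log2 fold change was -0.14, 55 of the 79 were below 0, and the 7 core subunits of complex I were all below 0, with a median of -0.28. All genes had a median of 0.00. The smallest p was that of Ndufa6, with 60.4, 46.5, 52.3 and 47.3 CPM in sham and 44.1, 25.7, 45.7 and 38.7 CPM in RYGB libraries (log2 fold change -0.44, SE 0.206, limma adjusted p = 0.717). All RYGB libraries were below the sham libraries, by under 1 CPM at the nearest, and this was the only gene of the 79 without overlap (1.27%, against 1.96% of all genes). Next by p were Ndufb4 (-0.41, limma adjusted p = 0.735) and Atp5j (-0.44, limma adjusted p = 0.736). Atp5j had 378.4, 248.4, 375.4 and 305.7 CPM in sham and 286.7, 175.6, 230.6 and 271.9 CPM in RYGB libraries, with sham 2 inside the RYGB range.

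Muscle alone listed Cox6a2, the heart and skeletal muscle isoform of subunit 6a (ENSMUSG00000030785, chr7:128205435-128206387). It had 319, 237.9, 266.3 and 326.6 CPM in sham and 438.5, 400.1, 416.6 and 238.7 CPM in RYGB libraries, a log2 fold change of 0.35 (SE 0.235, limma adjusted p = 0.788), and RYGB 4 overlapped with the sham mice. The general isoform Cox6a1 had 12.6, 10, 21.2 and 12 CPM in sham and 16.5, 10.6, 12.4 and 21.9 CPM in RYGB muscle. Per kilobase, the highest genes of complexes I to V in sham muscle were Ndufb5 (860 CPM per kilobase), Sdha (460), Uqcrfs1 (429), Ndufa4 (1979) and Atp5b (1399). The 10 genes of oxidative fibres, among them myoglobin and Myh2, the myosin of fast oxidative fibres, summed to 1075 to 10582 CPM in sham and 2508 to 6920 CPM in RYGB libraries. Without Myh2 the sums were 774 to 7423 CPM and 1963 to 4251 CPM, so they varied widely within each group. Their part in the values was not tested.

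Whether the RYGB effect differed between the jejunum and another tissue was tested in the animals that gave both, with the animal as a block. Against WAT (5 sham and 3 RYGB mice), the effect was lower in the jejunum for 39 of 76 subunit genes and higher for none, where 10.1% of 10091 genes were lower and 19.7% higher. Before adjustment 53 of the 76 passed (69.7%), against 41.5% of all genes. The smallest adjusted p was that of Ndufa4, at -2.46 (SE 0.201, limma adjusted p = 8.23e-05). In the jejunum Ndufa4 had 185.3 to 321.3 CPM in sham and 123.9, 241, 207.4 and 338 CPM in RYGB libraries. The highest of these, RYGB 4, was not part of this test. Sdhd differed by -1.44, Uqcr11 by -1.49, Cox7c by -1.19 and Atp5b by -0.80, while Ndufv1 (-0.66, limma adjusted p = 0.170), Ndufa13 (-0.54, limma adjusted p = 0.375) and Uqcrc1 (-0.55, limma adjusted p = 0.0879) did not pass.

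Against muscle (4 sham and 3 RYGB mice), the effect was higher in the jejunum for 30 of 76 subunit genes and lower for none, where 4.69% of 9535 genes were higher and 5.71% lower. Before adjustment 47 of the 76 passed (61.8%), against 27.5% of all genes. Ndufa13 differed by 2.12 (SE 0.309, limma adjusted p = 0.00578), Ndufv1 by 2.05 and Uqcrc1 by 1.92. With 1 animal left out at a time the counts ranged from 30 to 61 against WAT and from 8 to 33 against muscle. These tests share the jejunal libraries, so their results are given side by side only. Both kept jejunal RYGB 1 and 3, the jejunal libraries with the highest subunit sums, and left out jejunal RYGB 4 (11854 CPM in subunit genes). The mouse of WAT RYGB 3 and muscle RYGB 4 gave no jejunum and was left out. Its subunit sum was the lowest of the RYGB libraries in WAT (13677 CPM) and the highest in muscle (23532 CPM). The part of this choice of mice in the differences was not tested. Against the duodenum (5 and 3 mice) and the liver (4 and 4 mice) limma called none of 76 and of 74 genes. There 0.525% of 10663 genes were higher and 1.88% lower than in the duodenum, and 0.0224% of 8918 genes higher and 0.0449% lower than in the liver. At an unadjusted p below 0.05, 6 and 12 subunit genes passed (7.89% and 16.2%), against 20.4% and 18.3% of all genes.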

How the data were processed

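Bulk RNA was measured in 51 libraries of 6 tissues. The authors deposited 1 table of CPM for each tissue, and these were used. HTSeq and GRCm38 are the counting tool and build that the submitters' processing notes name. For the aligner, annotation release and use of strand nothing is stated in the labels or notes held, so reads of overlapping genes or of processed pseudogenes may be divided uncertainly. A gene is listed in a tissue if it reached 1 CPM in a number of libraries equal to the size of the smaller group, as checked on the tables. Repeated lines (339 for ileum, 374 for WAT) and lines without an identifier (2 for ileum, 6 for liver) were left out. No pair of libraries was identical (0 pairs).

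Samples were grouped by title and surgery label. Each tissue was fitted over all its genes with limma 3.58.1 in R 4.3.3 (eBayes with its trend and robust settings), taking log2(CPM + 1) as the level and surgery as the sole variable. With the pseudocount of 1, log2 fold changes of low genes come out too small. Jejunum and another tissue were fitted together with animal as a block and a tissue by surgery term. A p-value sets the difference between the groups against the spread between these mice, with each gene's variance moderated by that of all genes. The depth is unknown, so no counting interval is given. Transcript length is that of the shortest principal transcript in GENCODE M21, and the measure of short against long transcripts uses genes with a mean log2 level of at least 3. Promoter sequences are from RefSeq (GRCm38.p6), motifs were searched in the 250 bases before each start, and 56 of the 72 windows overlap a GENCODE exon.

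The members, gene lists and tests were chosen with earlier results of these data known. Every subunit gene could be named. Values in every library are given for up to 2 genes per complex and tissue with the smallest adjusted p where any passed, isoform pairs, and genes that passed in several tissues or against the others, or for the genes with the smallest p where none passed. Fits were tested on simulated data. Alternatives were median-of-ratios scaling, a pseudocount of 0.1, a mean CPM of at least 5, each library left out, the replicate number as a block, library weights and the duodenum without pancreas-rich libraries. Removal of each library's lowess trend on length (span 0.3) and the jejunum without RYGB 1 and 3 were chosen after seeing the data. Python 3.11.15, pandas 2.3.3 and matplotlib 3.10.9 were used.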

Additional observations from a re-analysis of the deposited data

Results flagged for a closer look

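Groups of 4 or 5 libraries were searched for a library that stood far from the rest of its group, over summed levels and named genes. Chance flags about 1 in 20 groups, and 20 of 175 did so. The whole sum holds the complex sums, so the groups are not independent. Most flags fell on duodenum sham 5, ileum sham 4 and duodenum RYGB 4, and nothing is read from their number. In the duodenum, sham 5 was far above the other sham libraries for the sum of all subunit genes (17844 CPM) and for each complex: 2930 CPM for complex I, 2207 for II, 2133 for III, 3048 for IV and 7526 for V. In the same tissue RYGB 4 was far below the other RYGB libraries for the whole sum (11835 CPM), complex II (1616 CPM) and complex III (1449 CPM). In the ileum, sham 4 was far above its group for the whole sum (11449 CPM), for complexes I to V (2448, 1103, 1171, 2169 and 4558 CPM) and for Sdhd (221.8 CPM). In WAT, RYGB 3 was low for complex II (1613 CPM), and RYGB 2 was high for Atp5g1 (3.3 CPM). Liver RYGB 1 was high for Sdhd (280.5 CPM), and muscle RYGB 3 was high for Cox7a2l (91.9 CPM).

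The RYGB effect differed between tissues, by a test of the difference itself, for 39 subunit genes between jejunum and WAT and for 30 between jejunum and muscle. Both tests held jejunal RYGB 1 and 3 and left out jejunal RYGB 4. In log2 units, jejunum minus WAT was -0.80 for Atp5b, -1.19 for Cox7c, -2.46 for Ndufa4, -1.44 for Sdhd and -1.49 for Uqcr11. Jejunum minus muscle was 1.15 for Atp5b, 1.86 for Cox5b, 1.96 for Cox6b1, 2.12 for Ndufa13, 2.05 for Ndufv1, 1.55 for Sdhc and 1.92 for Uqcrc1.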

How the results depend on the processing

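The WAT count of 75 genes past the threshold stayed between 72 and 75 under the alternatives tried. With the replicate number as a block, which names different mice in the 2 operations and is no pairing, the counts were 74 in WAT, 1 in jejunum, 2 in ileum and 0 in liver. Correlations between same-numbered libraries reached from -0.35 to 0.56, with at least 1 pair in each tissue under 0.1. Library weights gave 17 genes in duodenum (22.4%, beside 19.6% of all genes), 23 in jejunum (29.9% beside 15.8%) and 22 in liver (29.7% beside 31.7%). With 1 library left out, counts ranged from 0 to 1 in duodenum, 1 to 27 in jejunum, 0 to 1 in ileum and 0 to 19 in liver. With 1 animal left out they ranged from 30 to 61 for jejunum minus WAT and from 8 to 33 for jejunum minus muscle. Without both RYGB 1 and RYGB 3 the jejunum gave 0. The cause of these shifts was not tested. Median-of-ratios scaling moved the WAT median of all genes from -0.16 to 0.01, so that 2681 genes rose and 2593 fell in place of 1812 and 3341, and it left 74 subunit genes higher and 1 lower. The same scaling moved the medians of all genes from 0.15 to -0.01 in duodenum and from 0.26 to 0.09 in liver. Depth is unknown and limits the precision of low genes.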
